A study of Mus musculus with 5 samples.

Results

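The genes described here are Retnla, Chil3, Mrc1, Ear2 and Il4ra, 5 of the 28692 gene identifiers of the droplet libraries, chosen by name as transcripts linked to alternative activation of macrophages. They were followed in single cells from mouse kidney after unilateral ureteric obstruction (UUO), a surgical block of 1 ureter that can be undone. All mice were C57/BL6 and 8 weeks old, and no transgene or mutant allele is named. For droplets there were 4 groups of 1 library with 3 pooled mice each: a sham operation (day 0), obstruction for 2 days, obstruction for 7 days, and reversal of the block with collection 7 days later, on day 14. The wells of a separate Smart-seq2 sample came from all time points together and carry no time point of their own. The counts of that sample hold an EGFP row, with 0.0611% of reads, although no transgene is named. With 1 library per time point there was no replicate check and no test, so every interval below is a 95% interval for counting error only (exact Poisson for levels, exact Clopper-Pearson for shares, exact conditional binomial for ratios), and differences between the pools of mice are not covered.

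Alternative activation is the response of macrophages to the type 2 cytokines interleukin 4 and interleukin 13, which bind receptors that share the interleukin 4 receptor alpha chain and signal through the transcription factor STAT6. The response replaces microbe-killing functions with uptake of glycoproteins through the mannose receptor and secretion of chitinase-like and resistin-like proteins. In injured kidney, macrophages with such transcripts are commonly described alongside repair and fibrosis. Not all of these genes depend on the same signal: the chitinase-like protein Chil3 and the ribonuclease Ear2 are also made by monocytes or granulocytes without type 2 cytokines.

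Promoter windows from 250 bases before to 50 bases after the start of a gene were matched in RefSeq (GRCm38.p6) for all 5 genes. The 3 sequences below are the ones in which a searched motif was found, and each runs from 250 to 61 bases before the RefSeq start. That start is also the GENCODE gene start printed further on for Chil3 and Ear2, but it lies 58 bases downstream of the GENCODE start for Retnla, 22 for Mrc1 and 151 for Il4ra. Capitals mark the matches. The Retnla stretch lies at chr16:48842359-48842548 on the plus strand, the Chil3 stretch at chr3:106167625-106167814 on the minus strand and the Ear2 stretch at chr14:44102404-44102593 on the plus strand.
Retnla: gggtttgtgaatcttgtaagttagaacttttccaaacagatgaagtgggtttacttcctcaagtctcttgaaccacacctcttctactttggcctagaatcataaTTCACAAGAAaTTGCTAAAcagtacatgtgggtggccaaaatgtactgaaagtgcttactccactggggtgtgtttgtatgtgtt
Chil3: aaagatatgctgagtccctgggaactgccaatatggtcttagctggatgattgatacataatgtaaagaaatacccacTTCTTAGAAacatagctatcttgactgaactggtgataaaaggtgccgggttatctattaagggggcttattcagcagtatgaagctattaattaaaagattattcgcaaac
Ear2: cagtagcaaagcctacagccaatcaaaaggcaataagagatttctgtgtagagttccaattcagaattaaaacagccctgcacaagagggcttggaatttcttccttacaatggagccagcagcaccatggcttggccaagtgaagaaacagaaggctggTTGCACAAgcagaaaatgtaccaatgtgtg
The motifs searched, on both strands, were the palindromic STAT6-type spacing TTCNNNNGAA, the spacing TTCNNNGAA used by other STAT factors, and the C/EBP-like letters TTGCNNAA, which read TTNNGCAA on the other strand. Of 32851 RefSeq windows of the same length, 6.95% held the first, 8.30% the second and 10.8% the third. Retnla held TTCACAAGAA at 145 bases and TTGCTAAA at 134 bases before its RefSeq start (87 and 76 bases before its GENCODE start), Chil3 held TTCTTAGAA at 172 bases and Ear2 held TTGCACAA at 90 bases, and none of these matches overlapped another. The windows of Mrc1 and Il4ra held none of these letters. Each match is a description of the letters in the window.

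After filters on genes detected, mitochondrial share and doublet score, 13353 droplet cells were kept, of which 3565 were called mononuclear phagocytes (macrophages, monocytes and dendritic cells) from marker genes. They numbered 68 of 3753 kept cells in the sham library, 535 of 2157 at UUO day 2, 2332 of 4292 at UUO day 7 and 630 of 3151 after reversal. Their molecules were counted as unique molecular identifiers (UMIs), and the summed phagocyte UMIs were 254875, 5994869, 16420565 and 4982875 in the same order. The sham library is therefore the least precise, where 3 UMIs are worth 11.8 CPM (UMIs of a gene scaled to the summed UMIs of the phagocytes of that library). Its phagocytes had a median of 3140 UMIs per cell, against 10146, 6558 and 6794 in the later libraries. Markers of proximal tubule, a cell type outside the phagocytes, summed to 5999 CPM in sham phagocytes, 1011 at day 2, 458 at day 7 and 2561 after reversal, with all 10 markers detected in each library. Their part in the differences below was not tested, and a cluster of 207 phagocytes led by such genes (32 sham, 3 day 2, 15 day 7 and 157 reversed cells) was left out in an added alternative, picked once these values were known. The libraries shared cell barcodes in small numbers, with 0 to 3 phagocyte barcodes in common per pair of libraries. CPM values come from 3-prime tags and are compared between libraries or cells for 1 gene at a time, never between genes.

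The receptor gene Il4ra (chr7:125552120-125579474, plus strand, on GRCm38 as are all gene positions below) was detected in phagocytes of every library at 9, 472, 1274 and 283 UMIs in sham, day 2, day 7 and reversed cells. These counts gave 35.3 CPM (16.2 to 67.0), 78.7 (71.8 to 86.2), 77.6 (73.4 to 82.0) and 56.8 (50.4 to 63.8). The obstructed libraries were the high pair, their intervals overlapped each other, and the reversed library lay between them and sham. This order changed when the level in endothelial-like and T cell-like cells of the same library was subtracted, which left 0, 5.01, 28.2 and 16.0 CPM of Il4ra from sham to reversal. On the log2(CPM + 1) scale, day 2 differed from sham by 1.14 (0.22 to 2.23), day 7 from day 2 by -0.02 (-0.17 to 0.13), or 2.28 after that subtraction, and reversed from day 7 by -0.44 (-0.63 to -0.26). Il4ra was spread thinly over many cells: at day 7, 601 of the 851 cells with a UMI had exactly 1, and the highest cell had 12.

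Phagocytes held 70.5% of the Il4ra UMIs over the kept cells of all libraries together, and 11.1%, 72.2%, 78.0% and 54.1% from sham to reversal. Endothelium carried 48.5 CPM in sham, 103 at day 2, 61.3 at day 7 and 48.9 after reversal, so both cell types were higher at day 2 than in sham. Neutrophils held 108, 124 and 91.2 CPM in the 3 later libraries, and T cells 26.2, 32.5 and 27.4. The proximal tubule, which served as a low reference, held 2.49, 4.56, 17.9 and 5.02 CPM.

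The other genes of receptor signalling were counted as a list. A list of the receptor chains, Janus kinases, STAT6 and downstream regulators had 16 measured genes other than Il4ra between day 2 and day 7, and none of them was 2-fold higher or lower (9.87% of all genes were), with a median log2 difference of 0.43 against 0.04 over all 11651 genes with at least 30 UMIs. Between day 7 and reversal 0 of 16 passed 2-fold as well (3.03% of all genes did), with a median of -0.06 against -0.01. Stat6, the transcription factor itself, stood at 43.2, 44.7, 40.4 and 36.3 CPM in sham, day 2, day 7 and reversed phagocytes. Against sham, 3 of 15 genes were lower at day 2 (8.22% of all genes were), namely Irf4, Pparg and the interleukin 10 receptor gene Il10ra. Irf4, a transcription factor of dendritic cells and alternatively activated macrophages, went from 19.6 to 4.67 CPM, and Pparg, a lipid-sensing nuclear receptor, from 31.4 to 12.2. The sham values of Irf4 and Pparg rest on only 5 and 8 UMIs and are imprecise. The 9 markers of type 2 dendritic cells, Irf4 itself among them, went from 2268 to 936 CPM in the same cells (none at 0 in either). The type 2 dendritic-like cluster went from 25% to 11.6% of phagocytes. Their part in these differences was not tested. The STAT-induced inhibitor Cish had 0 sham UMIs and 50 at day 2, which is under the sham floor of 3 UMIs once scaled and gives no fold.

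The ligands were close to the detection limit. Il4 had 10 UMIs and Il13 had 13 UMIs in all 13353 kept cells. Il4 was seen in 0 of 3753 sham cells (a count of 0 taken as at most 3 cells with a UMI, or 0.0799%, for counting error only) and in 4 day 2, 3 day 7 and 3 reversed cells. All 13 Il13 UMIs were in the day 7 library, 10 of them in 2 T cells and 3 in 2 phagocytes. The alarmin gene Il33 had 843 UMIs, 45.3% of them in fibroblast or mural cells. Il4 and Il13 were not compared between time points at these counts.

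**Figure D1:**
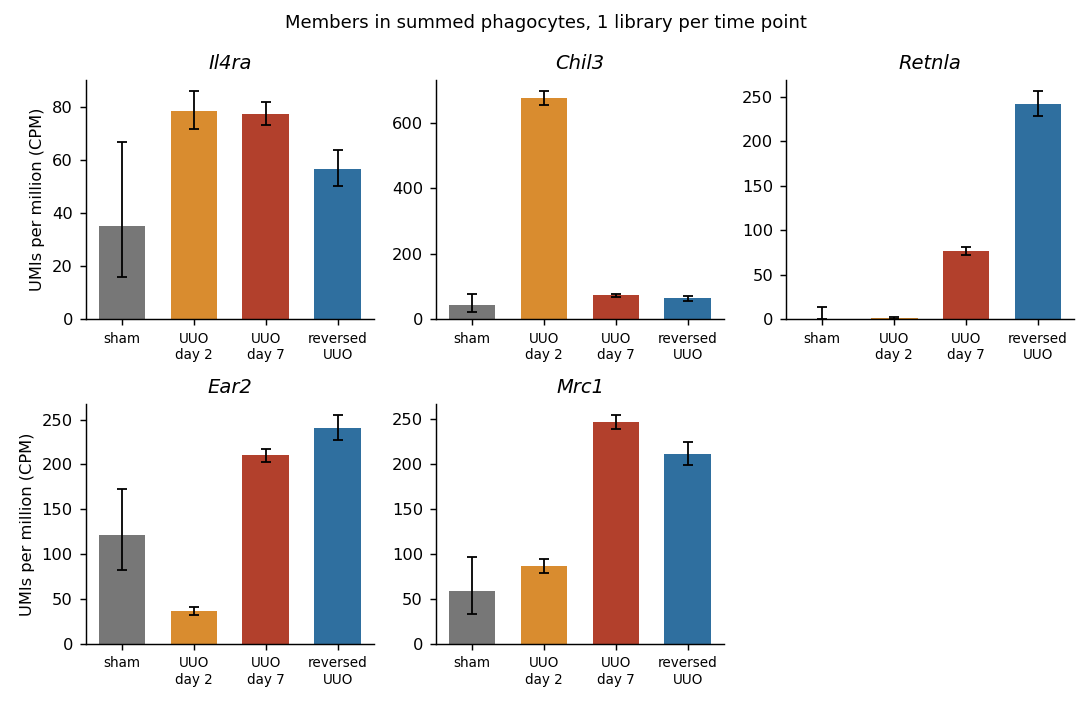
Levels of the 5 genes in the summed phagocytes of the 4 droplet libraries, as bars from 0 in CPM with a linear axis per gene and lines for 95% Poisson intervals. Chil3 is highest at UUO day 2 (676 CPM), Retnla is highest after reversal (242 CPM), and Mrc1 and Ear2 are high at both later time points.

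Chil3 (chr3:106147554-106167564, minus strand), the secreted chitinase-like protein also called Ym1, had 11, 4050, 1210 and 319 UMIs. The levels were 43.2 CPM (21.5 to 77.2) in sham, 676 (655 to 697) at day 2, 73.7 (69.6 to 78.0) at day 7 and 64.0 (57.2 to 71.4) after reversal. Only day 2 was high, and the other 3 intervals overlapped. The log2 difference was 3.94 (3.11 to 4.91) for day 2 over sham (3.28 without the cluster led by tubule genes, where sham stood at 69.1 CPM) and -3.18 (-3.27 to -3.09) for day 7 over day 2. After thinning, the share of phagocytes with Chil3 was 1.47%, 27.7%, 3.56% and 3.18%, against 0%, 1.78%, 0% and 0.190% of proximal tubule cells, whose unthinned medians ran from 2570 to 4389 UMIs. T cells at the same depth gave 0%, 1.82%, 1.53% (0.50 to 3.54) and 0.37%. Chil3 was shared with neutrophils, which held 412, 210 and 697 CPM in the 3 later libraries. The 7 neutrophil markers summed to 11.8, 232, 257 and 78.1 CPM in phagocytes, with S100a8, S100a9, Cxcr2, Retnlg, Mmp9 and Camp at 0 in sham. Both these markers and Chil3 were higher at day 2 than in sham, and the part of neutrophil transcripts in that difference was not tested. From day 2 to day 7 the marker sum went from 232 to 257 CPM and Chil3 from 676 to 73.7. The 8 markers of Ly6c2-high monocytes went from 2616 to 1774 CPM in phagocytes over the same step (none at 0). These markers include Chil3 itself, at 676 and 73.7 CPM. The cluster led by Saa3 and Hp went from 15.1% to 5.06% of phagocytes and that led by Ppbp and Ccl24 from 31.8% to 3.30%. The part of these cells in the Chil3 difference was not tested.

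Retnla (chr16:48842551-48844461, plus strand), which encodes the secreted resistin-like protein known as FIZZ1, had the reverse timing, with 0, 8, 1265 and 1208 UMIs. The levels were 0 CPM in sham (at most 14.5), 1.33 (0.576 to 2.63) at day 2, 77.0 (72.9 to 81.4) at day 7 and 242 (229 to 257) after reversal. Sham and day 2 were both under the sham floor and give no fold. Day 7 exceeded day 2 by a log2 difference of 5.06 (4.42 to 5.63), and reversed exceeded day 7 by 1.64 (1.53 to 1.76). Against the floor of 3 UMIs in the sham library (11.8 CPM, which is below the upper interval limit of 14.5), Retnla was at least 6.55-fold higher at day 7 and at least 20.6-fold higher after reversal, and without the cluster led by tubule genes these bounds were 4.11-fold and 16.3-fold. The reversed bound rests on few cells, as 2 of the 630 phagocytes held 50.2% of the Retnla UMIs there. After thinning to 1000 UMIs, which raises the sham floor to 44.1 CPM, they were 1.91-fold and 3.53-fold.

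The reversed and day 7 libraries differed in Retnla UMIs per positive cell. After thinning to 1000 UMIs, 3.22% (2.54 to 4.02) of day 7 and 3.81% (2.46 to 5.62) of reversed phagocytes had a Retnla UMI. Another random draw at this depth gave 2.53% (1.93 to 3.25) and 4.76% (3.24 to 6.73), so the gap between these shares depended on the draw. Without thinning the shares were 9.99% and 11.7%. T cells gave 2.15% and 0.749% after thinning to 1000 UMIs, from unthinned medians of 3584 and 3164 UMIs. Their intervals, 0.868 to 4.37 at day 7 and 0.0908 to 2.68 after reversal, overlapped those of phagocytes in the first draw. The mean was 5.43 Retnla UMIs per positive cell at day 7 and 16.3 after reversal. These means rest largely on a few cells. The 2 highest cells held 274 of 1265 UMIs at day 7 and 606 of 1208 after reversal. A single UMI was found in 174 of the 233 positive cells at day 7 and in 54 of 74 after reversal. After reversal 14 cells with 10 or more UMIs held 93.5% of the total, and 1 cell held 313 UMIs, against 26 cells with 76.8% and a highest cell of 196 at day 7. With every cell weighted equally, the log2 difference was 0.85 in place of 1.64.

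Ear2 (chr14:44102654-44103534, plus strand), an eosinophil-associated ribonuclease, had 31, 218, 3450 and 1199 UMIs. The levels were 122 CPM (82.6 to 173) in sham, 36.4 (31.7 to 41.5) at day 2, 210 (203 to 217) at day 7 and 241 (227 to 255) after reversal. Ear2 was lower at day 2 than in sham, by a log2 difference of -1.72 (-2.26 to -1.13), or -2.38 without the cluster led by tubule genes. The Ace-positive monocyte-like cluster held 18 of the 31 sham and 72 of the 218 day 2 UMIs of Ear2. It went from 13.2% to 2.43% of phagocytes between these libraries. The 8 markers of such monocytes went from 553 to 242 CPM (none at 0 in either), but they include Ear2 itself, at 122 and 36.4 CPM. The part of these cells in the Ear2 difference was not tested. For Ear2, day 7 exceeded day 2 by 2.50 (2.31 to 2.70). Over sham, Ear2 differed by 0.78 (0.28 to 1.34) at day 7 and 0.98 (0.47 to 1.54) after reversal, but by -0.01 and 0.17 when every cell had equal weight, and by 0.12 at day 7 without the cluster led by tubule genes. The reversed value passed 2-fold with phagocytes called cell by cell (1.20) and with finer clustering (1.03). The 5 eosinophil markers searched, Siglecf, Prg2, Epx, Ccr3 and Il5ra, were all at 0 in sham phagocytes and summed to 1.67, 2.07 and 3.81 CPM later. The near-identical family members Ear1, Ear6, Ear10 and Ear14 had 6, 0, 0 and 0 UMIs in all kept cells, and reads that fit several of these genes cannot be told apart in the deposited counts. Ear2 was also present in neutrophils at 245, 292 and 199 CPM in the later libraries.

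Mrc1 (chr2:14229392-14332057, plus strand), the macrophage mannose receptor CD206, had 15, 517, 4044 and 1055 UMIs. The levels were 58.9 CPM (32.9 to 97.1), 86.2 (79.0 to 94.0), 246 (239 to 254) and 212 (199 to 225) in sham, day 2, day 7 and reversed phagocytes. Sham and day 2 overlapped, and both later libraries were higher, by log2 differences of 2.05 (1.33 to 2.87) for day 7 and 1.83 (1.11 to 2.65) for reversed over sham. With the level in endothelial-like and T cell-like cells subtracted, sham Mrc1 was 16.0 CPM and these differences were 3.75 and 3.61. Day 2 Mrc1 was then 80.4 CPM, past 2-fold over sham. Endothelium held 30 of the 46 sham UMIs of Mrc1 and proximal tubule 1, so the level subtracted is not read as free RNA alone. With at most 20% mitochondrial UMIs day 2 also passed 2-fold, at 40.4 CPM in sham and 86.2 at day 2. After thinning to 1000 UMIs, Mrc1 stood at 88.2 CPM in sham and 65.4 at day 2. The sham value rests on 6 of 68 cells with a Mrc1 UMI, where the floor is 44.1 CPM, so no order is read from it. The 10 macrophage markers, which include Mrc1 itself, summed to 13422, 9417, 25813 and 23836 CPM in phagocytes (none at 0). From sham to reversal, the cluster led by Fyb and Fcgr4 made up 0, 1.12%, 21.8% and 3.81% of phagocytes and the cluster led by Ccl8 and Pf4 0, 0.935%, 15.4% and 6.19%, both high in Mrc1. They held 0 of the 15 sham and 27 and 185 of the 1055 reversed Mrc1 UMIs, while the cluster led by tubule genes, 47.1% of sham and 24.9% of reversed phagocytes, held 8 and 321 of them. The cluster led by Ccl3 and Ccl4, at 303.5 CPM of Mrc1 over all libraries, held 236 of the reversed UMIs. It made up 0, 0.935%, 11.8% and 15.6% of phagocytes from sham to reversal. Without the cluster led by tubule genes Mrc1 stood at 44.0, 86.5, 246.5 and 188 CPM in the same order. The part of these cells in the Mrc1 differences was not tested. Reversed was slightly lower than day 7, by -0.22 (-0.32 to -0.12). Mrc1 was spread over most day 7 cells: 1391 of 2332 day 7 phagocytes had a UMI, and the 42 cells with 10 or more held 14.3% of them. Outside phagocytes, endothelium of the sham library carried 46.9 CPM (31.6 to 67.0) of Mrc1 and 9.52, 20.9 and 8.67 CPM in the later libraries. Sham phagocytes and sham endothelium thus overlapped in Mrc1 level.

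**Figure D2:**
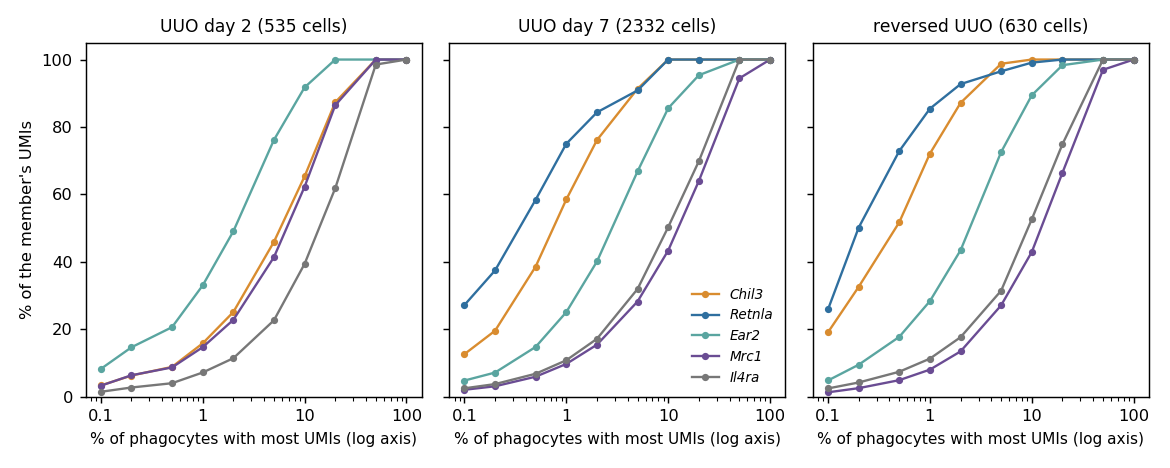
Cumulative percentage of the UMIs of each gene held by the phagocytes with the most of it, against the percentage of phagocytes on a log axis, for UUO day 2, UUO day 7 and reversed UUO. Retnla, with 8 UMIs at day 2, is not drawn there. At day 7 and after reversal the Retnla and Chil3 curves rise first and the Mrc1 and Il4ra curves last, and at day 2 Ear2 rises first.

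Counted together, 3 of the 4 measured genes were past 2-fold between day 2 and sham (Chil3 and Il4ra higher, Ear2 lower), where 25.7% of 9042 genes passed in either direction, 17.5% higher and 8.22% lower. With genes at 0 in a library taken at their floor, 19.9% passed. Il4ra, at 1.14, fell short of 2-fold after thinning to 1000 UMIs (0.60) and with a pseudocount of 10 CPM (0.97). Between day 7 and day 2, 4 of 5 passed (Retnla, Mrc1 and Ear2 higher, Chil3 lower), against a background of 9.87%, with 7.18% higher and 2.7% lower. Between reversed and day 7 only Retnla passed, against 3.03% (2.39% higher and 0.637% lower), and it no longer did with equal weight per cell. Without the 2 phagocytes highest in Retnla in each library, the levels were 60.4 CPM at day 7 and 122 CPM after reversal, at the edge of 2-fold. Reversed over sham had 2 of 5 past 2-fold (Retnla and Mrc1, both higher), against 22% (17.3% higher and 4.74% lower), or 16.3% (11.6% higher) with genes at 0 at their floor. Day 7 over sham had 3 of 5 (the same pair and Il4ra), against 29.8% (22.9% higher and 6.9% lower), or 16% (9.12% higher) at the floor. Il4ra, at 1.11 for day 7 over sham, fell short of 2-fold with a pseudocount of 10 CPM (0.95), after thinning to 1000 UMIs (0.69) and with phagocytes called cell by cell (0.90). The comparisons share libraries and are not independent of each other. The median of all genes over sham was shifted by 0.16, 0.18 and 0.13 at day 2, day 7 and reversal, or by 0.07, 0 and 0.05 with genes at 0 taken at their floor, so small differences from sham are to be read against that shift.

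Other transcripts of alternative activation, from a list of 26 further genes, followed no single time course either. Day 7 against day 2 had 7 of 21 measured genes higher and 5 lower (7.18% and 2.7% of all genes), with a median of 0.35 against 0.04 over all genes. The lower ones were Ccl24, Tgm2, Msr1, Fn1 and Myc, and among the higher ones were the lectin gene Mgl2, the growth factor gene Igf1 and the lipid-binding protein gene Fabp4. Ccl24 and Fn1 are among the leading genes of the cluster led by Ppbp and Ccl24, which went from 31.8% to 3.30% of phagocytes. Fn1 is also a leading gene of the cluster led by Mmp12 and Lyz1, which went from 0 to 6.05%. The part of these cells in the Ccl24 and Fn1 differences was not tested. Of the Fabp4 UMIs of all kept cells 85.1% were in endothelium, and the 9 endothelial markers summed to 58.9, 68.7, 174 and 174 CPM in phagocytes from sham to reversal (Cdh5 and Flt1 at 0 in sham, none at 0 later), beside 27.5, 19.5, 65.3 and 30.5 CPM of Fabp4. Their part in the Fabp4 difference was not tested. Of the Igf1 UMIs 54.5% were in phagocytes, and the 8 fibroblast or mural markers summed to 11.8, 21.9, 114 and 56.0 CPM in phagocytes (5 at 0 in sham, Postn at 0 at day 2, none later), beside 19.6, 14.2, 48.1 and 82.9 CPM of Igf1. Their part in the Igf1 difference was not tested either. Ccl24, an eosinophil-attracting chemokine, was at 0, 67.7, 2.92 and 4.21 CPM, and the scavenger receptor gene Msr1 at 15.7, 140, 68.5 and 62.6, so both were highest at day 2, as Chil3 was. Mgl2 was at 518, 272, 613 and 453 CPM and was lowest at day 2, as Ear2 was. Mgl2 is itself among the markers of type 2 dendritic cells, whose cluster went from 25% of sham to 11.6% of day 2 phagocytes. The part of these cells in the Mgl2 difference was not tested. Against sham, day 2 had 9 of 17 higher and 1 lower (17.5% and 8.22% of all genes) with a median of 1.31, which became 7 higher (11.6% of all genes) and a median of 0.31 with genes at 0 taken at their floor, against all-gene medians of 0.16 and 0.07. Reversed against day 7 had 1 of 21 higher (the scavenger receptor gene Cd36, from 58.2 to 137 CPM) and 4 lower (Retnlg, Folr2, Lyve1 and Fabp4), where 2.39% and 0.637% of all genes were. Of the Cd36 UMIs of all kept cells 47.25% were in phagocytes. The 10 proximal tubule markers went from 458 to 2561 CPM in phagocytes between these libraries (none at 0), and their part in the Cd36 difference was not tested. Retnlg, itself a neutrophil marker, went from 12.9 to 2.21 CPM while the sum of the 7 neutrophil markers in phagocytes went from 257 to 78.1 CPM (Camp at 0 in both), and the part of neutrophil transcripts in that difference was not tested. Folr2 and Lyve1 are among the leading genes of the cluster led by Ccl8 and Cd209f, which had 12 day 7 and 0 reversed cells, and the part of those cells was not tested.

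Of a list of genes of arginine and polyamine metabolism, 2 of 11 described were higher at day 2 than in sham, near the 17.5% of all genes, namely Srm and Sms, which encode the spermidine and spermine synthases. Srm went from 11.8 to 82.9 CPM, the 3 sham UMIs behind the first value being at the floor, and then to 29.5 and 29.7 CPM at day 7 and reversal. The 7 markers of cycling cells summed to 43.2, 1052, 516 and 393 CPM in phagocytes from sham to reversal (Mki67, Birc5 and Ube2c at 0 in sham, none later). Their part in the Srm differences was not tested. At day 7 against day 2, 0 of 12 described were higher and 2 were lower (7.18% and 2.7% of all genes), Srm and the argininosuccinate synthase gene Ass1. Of the Ass1 UMIs of all kept cells 84.8% were in proximal tubule, whose 10 markers went from 1011 to 458 CPM in phagocytes (none at 0) while Ass1 went from 173 to 79.8 CPM, and their part in that difference was not tested. The nitric oxide synthase gene Nos2, which classically activated macrophages use to turn arginine into nitric oxide, had 0, 0, 4 and 0 phagocyte UMIs. Of the classical activation list, 3 of 13 described were higher and 0 lower at day 7 against day 2 (7.18% and 2.7% of all genes), namely Il12b, Cd40 and Cxcl9, with a median of 0.07. The 6 markers of Ccr7-positive dendritic cells went from 123 to 324 CPM in the same comparison (none at 0) and the cluster led by Fscn1 and Ccr7 from 0.748% to 2.87% of phagocytes, while the cluster led by Cxcl9 itself and Cxcl10 went from 1.5% to 8.62%, and their part in these differences was not tested.

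The 5 genes were then placed on clusters of phagocytes, which were built without these genes and their near-identical copies. Chil3 was split mainly between 2 clusters. The Ly6c2-high monocyte-like cluster led by Saa3 and Hp (227 cells) held 59.0% of its UMIs and stood at 3226, 1313 and 1767 CPM at day 2, day 7 and reversal. A cluster led by Ppbp and Ccl24 (284 cells, of which 1 was sham, 170 day 2, 77 day 7 and 36 reversed), which stayed unnamed, held 29.0%, nearly all at day 2, with 886 CPM then and 36.0 and 74.1 CPM later. From day 2 to day 7 the first of these clusters went from 15.1% to 5.06% of phagocytes and the second from 31.8% to 3.30%. The part of these shares in the Chil3 difference was not tested. The day 7 level of Chil3 was also below the day 2 level within both clusters. A cluster led by the replication genes Cdca7 and Mcm6 showed the same timing, with 256 CPM of Chil3 at day 2 and 4.04 at day 7.

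Retnla and Ear2 met in a cluster led by Mmp12 and Lyz1 (198 cells, 141 from day 7, 57 from reversal and 0 from sham and day 2), also unnamed. It held 80.8% of the Retnla UMIs and 54.1% of the Ear2 UMIs. Retnla went from 718 CPM at day 7 to 1932 after reversal in this cluster, found in 36.2% and 45.6% of its cells. The difference rested largely on a few cells: the 2 highest reversed cells held 606 of the 1124 UMIs there, the 2 highest day 7 cells 274 of 880, and without these the levels were 499.8 and 949 CPM. Ear2 did not differ there, with 1465 CPM in both libraries and detection in 92.2% and 86.0% of cells. Ear2 had other homes too: the type 2 dendritic-like cluster led by Cd209a and Ccl17 held 21% of its UMIs, with 90.8, 58.0, 385 and 403 CPM from sham to reversal. The 41 cells of the Ace-positive monocyte-like cluster carried 1006, 1179, 1007 and 1072 CPM, about the same in all 4 libraries, and 9 of the 68 sham phagocytes were such cells.

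Mrc1 was found in many clusters. The cluster led by Ccl8 and Pf4 (402 cells) held 24.6% of its UMIs at 652 CPM, with detection in 87.3% of cells. The macrophage-like cluster led by Fyb and Fcgr4 had 277 CPM, against 15.4 in the Ly6c2-high monocyte-like cells and 14.4 in the type 1 dendritic-like cells. The type 2 dendritic-like cluster lay between them at 79.9 CPM (102 at day 7, in 40.3% of its cells). The highest level, 1822 CPM, was in 13 cells led by Ccl8, Cd209f, Folr2 and Lyve1, of which 12 came from day 7. The Ppbp and Ccl24 cluster had 91.6 CPM of Mrc1 at day 2, 318 at day 7 and 81.8 after reversal. Its day 2 level there was thus close to the 86.2 CPM of all day 2 phagocytes.

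Il4ra varied least over clusters, from 28.8 CPM in type 1 dendritic-like cells to 130 CPM in the Ccl8 and Pf4 cluster among those with at least 50 cells. The Mmp12 and Lyz1 cluster, where Retnla and Ear2 were high, had 37.1 CPM, toward the low end, and the Ppbp and Ccl24 cluster had 88.1. Across the 14 clusters with at least 50 cells, the Pearson correlation of log levels was 0.77 between Retnla and Ear2, -0.61 between Ear2 and Il4ra and -0.27 between Retnla and Chil3. These values describe clusters that share libraries and depth, and some clusters come almost wholly from 1 time point.

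**Figure D3:**
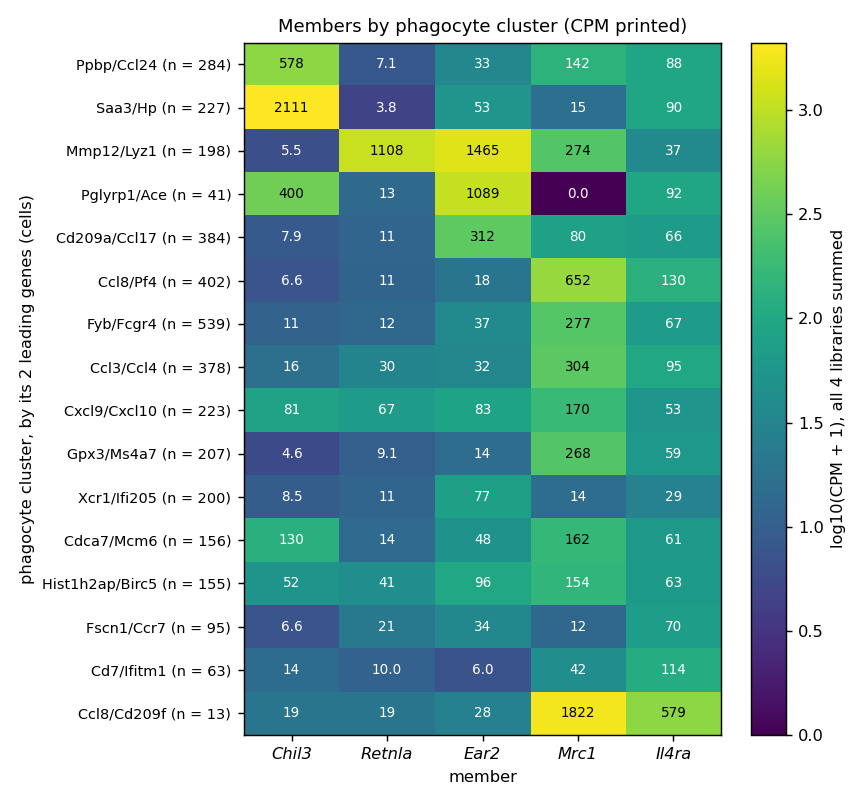
Levels of the 5 genes in each phagocyte cluster, named by its 2 leading genes with its number of cells (n), over the 4 libraries summed, coloured by log10 of CPM plus 1 with the CPM printed. Chil3 is high in the Saa3/Hp cluster (2111 CPM), Retnla and Ear2 in the Mmp12/Lyz1 cluster (1108 and 1465 CPM) and Mrc1 in both clusters led by Ccl8.

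Genes with the most similar cluster profile were named from the 5 highest correlations among 4333 genes. For Chil3 they were Trem3 (0.97), Clec4e, Dpp3, Vcan and Fbxl5. Retnla was closest to Slc27a3 (0.88), Asgr2, Dcstamp, Plxnd1 and Mtdh, and Ear2 to Dcstamp (0.88), Slc27a3, Rpl37a, the interleukin 33 receptor gene Il1rl1 and Plxnd1. Mrc1 was closest to Myo5a (0.95), Nenf, Fcrls and Slc29a3, and Il4ra to Wbp2 (0.82), Emc3, Nipa2, Ifitm2 and Wfdc2. Several of these genes were among those that built the clusters.

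Co-detection was counted per phagocyte after thinning every cell to 4000 UMIs, which left 509 cells at day 2, 1820 at day 7 and 476 after reversal and removed 26, 512 and 154 shallower cells. Pairs were not described in the 23 sham cells left. None of the 5 genes was found in 35.4% of day 2, 27.4% of day 7 and 32.4% of reversed cells, and exactly 1 in 43.4%, 43.4% and 45.2%. Exactly 4 were found in 0 day 2, 9 day 7 and 2 reversed cells, and all 5 in 1 day 7 cell. T cells thinned to the same depth served as a reference for free RNA (118 cells at day 7, with 208 shallower cells left out). Il4ra is itself present in T cells, so its T cell share is not read as free RNA. At day 7 a Retnla UMI was found in 7.03% of phagocytes (5.90 to 8.31) and 6.78% of T cells (2.97 to 12.9), so that share is at the background and is not read as a share of cells that express Retnla. The same holds after reversal, with 5.46% of phagocytes (3.599 to 7.901) and 4.69% of 64 T cells (0.977 to 13.1). With at least 2 UMIs required, the Retnla shares after reversal were 2.94% of phagocytes and 1.56% of T cells (1 cell), and at day 7 they were 1.92% of phagocytes and 0 of 118 T cells, which allows a share of up to 2.54% of T cells, for counting error only. The other day 7 shares in phagocytes and T cells were 46.3% and 5.08% for Mrc1, 22.1% and 4.24% for Ear2, 25.4% and 13.6% for Il4ra and 7.14% (6.002 to 8.424) and 2.54% (0.527 to 7.25) for Chil3, whose intervals overlap. At day 2 Chil3 was found in 36.7% of phagocytes and in 9.76% of only 41 T cells.

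At day 2, Chil3 and Mrc1 shared 31 cells, where the product of their shares gives 37.1, and Chil3 and Il4ra shared 49 against 47.0. At day 7, Retnla and Ear2 shared 61 cells against 28.3, and 61 against 46.9 within clusters, where 93 of the 128 cells with Retnla had a single UMI of it. After reversal the pair shared 15 cells against 4.64, and 13 against 11.4 within the clusters large enough to count. Since Retnla in both libraries and Chil3 at day 7 were not separated from T cells at this depth, their pairs are counts of cells with a UMI and are not read as cells that express both genes. Chil3 and Mrc1 shared 36 day 7 cells against 60.1 but 35 against 33.4 within clusters. Mrc1 and Ear2 shared 188 against 186 over all day 7 cells, and 185 against 165 within clusters, including 39 against 25.5 in the type 2 dendritic-like cluster.

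**Figure D4:**
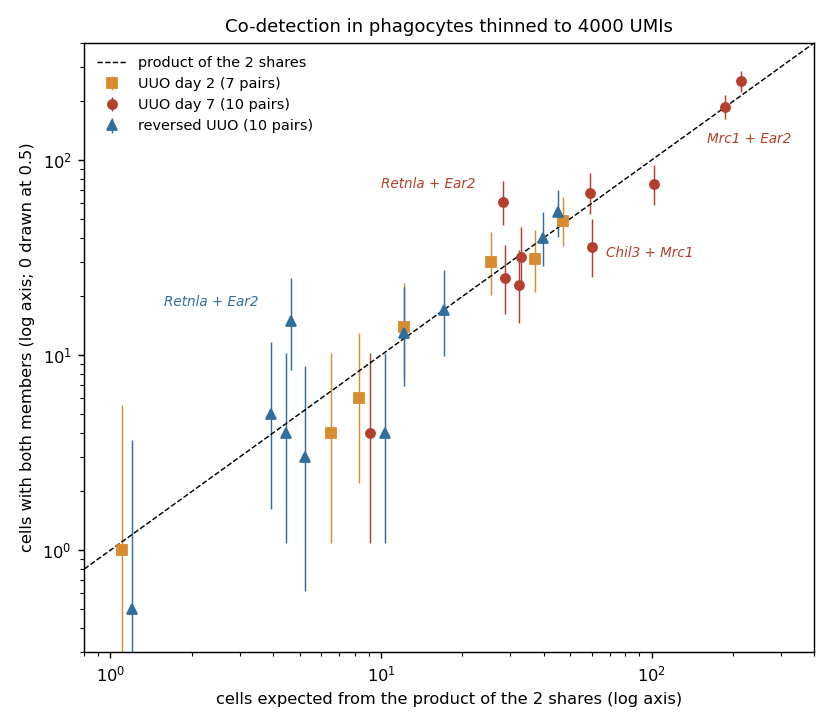
Phagocytes with both genes of a pair against the number given by the product of their shares, on log axes, for UUO day 2, UUO day 7 and reversed UUO, each cell thinned to 4000 UMIs, for pairs whose product is at least 1 cell, with 95% Poisson intervals and a dashed line of equality. Retnla with Ear2 lies above the line at day 7 (61 against 28.3) and after reversal (15 against 4.64), and Chil3 with Mrc1 lies below it at day 7 (36 against 60.1), where the shares of Retnla and of day 7 Chil3 overlap those of T cells.

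Cells with and without a gene were compared in the library with its highest share after thinning, as a description of cells from 1 pool. Day 2 cells with Chil3 had the fibronectin gene Fn1 in 64.7%, against 28.6% without it, and the lipid receptor gene Trem2 in 56.2% against 26.7%. The lectin gene Mgl2, like Fn1 a gene of the list of other alternative activation transcripts, was found in 9.09% against 32.6%. Cells with Retnla are not described in this way, since the share was at the T cell level. Cells with Ear2 at day 7 had the macrophage elastase gene Mmp12 in 35.5% against 10.1%, S100a4 in 60.3% against 32.9%, and the macrophage gene Ms4a7 in 33.5% against 66.7%. After reversal, cells with Mrc1 had the transferrin gene Trf in 85.7% against 47.0% and the growth factor receptor gene Csf1r in 83.4% against 48.6%.

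Over the 4 libraries together, most UMIs of each of the 5 genes were in phagocytes. This did not hold in the sham library for Retnla (0 of 35 UMIs), Mrc1 (15 of 46, with 65.2% in endothelium) and Il4ra (9 of 81), nor at day 2 for Retnla (8 of 20). Neutrophils, 25 to 62 cells in each later library, had higher levels of some of these genes than phagocytes. Their Chil3 exceeded that of phagocytes at day 7 (210 against 73.7 CPM) and after reversal (697 against 64.0), and they held 20% of the reversed Chil3 UMIs. Their Ear2 exceeded that of phagocytes at day 2 (245 against 36.4 CPM) and at day 7 (292 against 210). Phagocytes held 88.2% of the Retnla UMIs of all kept cells, libraries together, 93.2% of Chil3, 93.9% of Mrc1 and 91.7% of Ear2. Retnla in endothelium was 0, 0, 12.7 and 10.5 CPM and in proximal tubule 3.12, 0.829, 10.7 and 11.9 CPM from sham to reversal. The sham library thus had 30 Retnla UMIs in 3016 proximal tubule cells and 0 in its 68 phagocytes, whose limit of 14.5 CPM lies above that tubule level. Reads of near-identical genes could have been split between copies: Chil4 had 5 UMIs in all kept cells, and Retnlg had 1934, of which 73.1% were in neutrophils.

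In the Smart-seq2 sample, which covers whole transcripts with reads that carry no molecular identifier, 416 of 768 wells had at least 1000 genes and 50000 gene reads, and 405 of these carried phagocyte markers. Passing wells had a median of 440854 reads. With at least 10 reads required, Mrc1 was found in 51.9% of the 405 wells (46.9 to 56.8), Il4ra in 28.6% (24.3 to 33.3), Ear2 in 10.4% (7.58 to 13.8), Chil3 in 2.47% (1.19 to 4.49) and Retnla in 0.988% (0.270 to 2.51). A single well held 70.3% of the Retnla reads, against 4.95% for Mrc1.

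Pairs were counted in the wells at low numbers. Retnla and Ear2 shared 2 wells where the product of shares gives 0.415, and Retnla and Chil3 shared 0 against 0.0988. All 4 Retnla wells had Mrc1, against 2.07, and Mrc1 with Il4ra shared 78 against 60.2. None of the genes was found in 131 wells, 1 in 176, 2 in 89, 3 in 8 and 4 in 1. The plates differed, with Mrc1 in 23.3% to 67.1% of a plate's phagocyte wells and Retnla on 3 of 8 plates. Because the time points of the wells are not given, plate and time point cannot be told apart. Nos2 reached 10 reads in 0 of 405 wells, which, with a count of 0 taken as at most 3 wells, is up to 0.741% of wells with 10 reads, and Ear1 in 3.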

How the data were processed

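Droplet libraries (3-prime V2 chemistry, per the labels' protocols) came from kidneys digested on ice and sorted for live cells with DAPI. For droplets the authors deposited UMI counts that were not normalized. The Smart-seq2 values are deposited read counts, also not normalized, with spike-in rows (1.51% of reads) and an EGFP row (0.0611%) left out of totals, and the text given for that sample repeats the droplet protocol. Per the submitters' processing notes, Cell Ranger, STAR and the builds GRCm38 and mm10 were used, with no versions. The 4 droplet libraries held 18649637 to 30462683 UMIs in 2739 to 5938 barcodes.

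Cells needed 200 or more genes and a mitochondrial share of 50% or less, and the highest Scrublet scores were removed at 0.8% per 1000 deposited cells (scanpy 1.11.5). All libraries were clustered together without batch correction (2000 variable genes, 30 principal components, 15 neighbours, leidenalg 0.10.2 at resolution 1), leaving out the 6 genes of the set, their near-identical copies and mitochondrial genes. Clusters were named from marker lists and are called "like" a type, and phagocytes were clustered again. The joint cluster with the most phagocytes was the same for sham (30 of 68 cells), day 7 (1084 of 2332) and reversed cells (186 of 630) and another one for day 2 (220 of 535). UMIs were summed per library and class and given as CPM. Ratios are log2 of CPM plus 1, which understates changes of low genes. Genes with at least 30 UMIs in a pair of libraries formed the background, and a 2-fold difference was counted as past the threshold. For genes without a UMI, 3 UMIs per library served as the floor. Cells were thinned at random to 1000 UMIs for shares and 4000 for co-detection, with fixed seeds. No test between time points was run, each having 1 library, and the scripts were tested on simulated data. In those data unchanged genes passed 2-fold far more often in comparisons with sham than between the later libraries. Counts past 2-fold over sham are to be read with that limit. A Smart-seq2 well counted as positive with at least 10 reads.

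Of the 6 genes 5 are described; 1 of the set and 2 outside it are not reported here and enter no count of members or lists. The members and gene lists were chosen with earlier results of these data known. Other named genes come from the lists, are among the 5 closest in cluster profile, or are among the 5 largest differences in detection between cells with and without a member. Gene coordinates are from GENCODE M21 on GRCm38. Other tools were Python 3.11.15, numpy 2.4.6, pandas 2.3.3, scipy 1.17.1, matplotlib 3.10.9 and, for TMM factors alone, edgeR 4.0.16 in R 4.3.3.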

Additional observations from a re-analysis of the deposited data

How the results depend on the processing

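No paired analysis was possible because each time point has 1 library, and for the same reason no replicate could be left out. The number of genes past 2-fold stayed within 1.5 times its reported value in 57 recalculations and moved further in 3. Between reversal and day 7 it was 0 with equal weight per cell and 0 after thinning to 1000 UMIs, where Retnla differed by 0.85 and 0.88 in place of 1.64. Between day 7 and sham it was 1 after thinning to 1000 UMIs, against 3. After this thinning the log2 ratio of Mrc1 at day 2 over sham was -0.43 in place of 0.54, from 6 sham cells with a Mrc1 UMI. It was 1.08 with at most 20% mitochondrial UMIs and 2.26 after subtracting the level in endothelial-like and T cell-like cells. Endothelium held 65.2% of the sham Mrc1 UMIs, so that subtraction is not read as a removal of free RNA alone. The cause of these shifts was not tested. With the mitochondrial limit or with the subtraction, 4 genes were past 2-fold at day 2 over sham, 3 of them higher. Under the subtraction this counts Il4ra, whose 0 and 5.01 CPM are both under the sham floor. Under the subtraction all 5 were past 2-fold at day 7 over day 2, with Il4ra at 2.28 in place of -0.02. Of the recalculated ratios, 236 moved by less than their counting interval and 52 moved further. The latter were 11 with the level in endothelial-like and T cell-like cells subtracted, where Il4ra is itself present, 10 after thinning to 1000 UMIs, 9 with equal weight per cell, 8 with phagocytes called cell by cell, 8 without the cluster led by tubule genes (an alternative chosen after seeing the data), 3 and 1 with pseudocounts of 10 and 0.1 CPM and 2 with TMM factors. Shares of phagocytes moved further in 28 recalculations and did not in 52. Co-detection ratios moved further in 26, went to the other side of 1 from an interval that did not hold 1 in 1, and did neither in 59, and shares of wells moved further in 8 and did not in 7. The ratio of Retnla and Ear2 cells to the product of shares at day 7 was 2.15, 1.85 without thinning, 5.44 after thinning to 1000 UMIs and 8.67 with at least 2 UMIs required. Ear2 with Il4ra at day 7 was below the product in the thinned cells (75 against 102) and level with it, at 1.01, without thinning, and at 1 against 11.1 with at least 2 UMIs required; the cause was not tested. Requiring 1 read in a Smart-seq2 well gave Mrc1 in 94.8% of the phagocyte wells, Il4ra in 63.0%, Ear2 in 55.6%, Chil3 in 15.8% and Retnla in 10.1%. The sham values rest on 68 phagocytes, of which 32 lie in the cluster led by tubule genes, and no interval covers differences between mice.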

Other observations

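Transcripts of classical activation split at day 2 against sham. Of 11 measured genes described from that list, 4 were at least 2-fold higher and 2 at least 2-fold lower (17.5% and 8.22% of all genes), with a median log2 difference of 0.67 against 0.16 over all genes. Higher were the cytokine gene Il1b (200 to 435 CPM), the cytokine signalling inhibitor gene Socs3 (31.4 to 257 CPM), Cd80 and Ptgs2, the last 2 from 1 and 3 sham UMIs. Il1b was also among the leading genes of the neutrophil cluster, and the 7 neutrophil markers summed to 11.8 CPM in sham phagocytes (6 of them at 0) and 232 CPM at day 2 (none at 0), so that sum moved with these genes, and its part in the differences was not tested. Lower were the interferon-linked genes Cxcl9 (70.6 to 26.0 CPM) and Irf1 (78.5 to 33.4 CPM). At day 7 Cxcl9 stood at 102 CPM and Irf1 at 66.2 CPM.

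Cells of the cluster led by Hist1h2ap and Birc5, histone and cell division genes, had Mrc1 at 154 and Il4ra at 63.2 CPM over its 155 cells, which are the deepest phagocytes by cluster with a median of 14095 UMIs. Chil3 there stood at 84.1 CPM at day 2, below the 676 CPM of all day 2 phagocytes. The 13 cells led by Ccl8 and Cd209f had Il4ra at 579 CPM (444 to 743) beside their high Mrc1, with an Il4ra UMI in 92.3% of them.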
